A study of Mus musculus with 12 samples.

Results

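The genes described here are 40 genes that mouse cells need for DNA replication and for mitosis, 21 replication genes and 19 mitosis genes, listed by symbol. They were found through the gene symbols of the array's platform annotation. Of the 40 genes, 38 had a named probe and 34 could be tested (20 replication and 14 mitosis genes) among 11621 genes tested in all. Pola1, a subunit of the DNA polymerase that makes primers, Ccnb2, a mitotic cyclin, Bub1, a spindle checkpoint kinase, and Cenpe, a kinetochore motor, had probes but rose above background on at most 1 of 12 arrays. Ccnb1 and Mki67 were not analysed here because no probe of the annotation carried their symbols.

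The cells were F9, mouse teratocarcinoma cells that turn into endoderm under retinoic acid. Their RNA was read on 12 Illumina bead arrays in 6 groups of 2. The pRS-kdm3a cells, labelled as a knock-down of the histone demethylase gene Kdm3a, are called KD here, and the control cells, labelled WT for Kdm3a, are called CTL. RNA of each kind of cell comes from 3 stages. These are cells before any treatment (0 h), cells given retinoic acid for 3 days (72 h) and cells then given retinoic acid with cAMP for 3 more days (6 d). The labels call the 2 arrays of a group biological replicates without saying whether they came from separate cultures or clones, so each p-value measures the spread between these arrays. All 12 arrays carry total RNA of whole cultures, and in such samples fewer cycling cells and less RNA per cell cannot be told apart.

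Replication starts when Cdc6 and Cdt1 load the ring of Mcm proteins onto origins, a step that geminin (Gmnn) blocks. Cyclin E (Ccne1) with its kinase and Cdc45 turn the ring into a working helicase, primase (Prim1) starts the strands, the clamp Pcna, loaded by the Rfc complex, holds the polymerases, and Fen1 and Lig1 process and seal the lagging strand. In mitosis, cyclins A and B with Cdk1, set free by the phosphatase Cdc25c, drive entry, Aurora and Polo kinases build the spindle, Mad2l1 and Bub1b hold the checkpoint, and Cdc20 releases it. Many replication promoters are bound by E2F factors, and many mitosis promoters carry CHR elements with CCAAT boxes. Embryonal carcinoma cells divide fast, and their growth slows as retinoic acid makes them differentiate.

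Promoter windows of the members with the smallest adjusted p in each module are shown, because these are the genes whose fall is described below, Mcm7 and Ccne1 for replication and Top2a and Cdc20 for mitosis. Each window holds 250 bases before and 50 bases after a RefSeq start (GRCm38.p6), read 5′ to 3′ along the gene, and capitals mark E2F sites, CHR elements and CCAAT boxes found on either strand. The Mcm7 window is the first listed of several starts of that gene. It lies at chr5:138171834-138172133, that of Ccne1 at chr7:38107441-38107740, that of Top2a at chr11:99024140-99024439 and that of Cdc20 at chr4:118437294-118437593, all on the minus strand.
Mcm7: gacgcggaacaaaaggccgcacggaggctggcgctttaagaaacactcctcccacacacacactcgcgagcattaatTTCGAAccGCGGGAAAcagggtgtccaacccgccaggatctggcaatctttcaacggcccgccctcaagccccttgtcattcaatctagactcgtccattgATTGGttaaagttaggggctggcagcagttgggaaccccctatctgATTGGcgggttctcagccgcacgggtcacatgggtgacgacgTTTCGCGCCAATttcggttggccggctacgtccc
Ccne1: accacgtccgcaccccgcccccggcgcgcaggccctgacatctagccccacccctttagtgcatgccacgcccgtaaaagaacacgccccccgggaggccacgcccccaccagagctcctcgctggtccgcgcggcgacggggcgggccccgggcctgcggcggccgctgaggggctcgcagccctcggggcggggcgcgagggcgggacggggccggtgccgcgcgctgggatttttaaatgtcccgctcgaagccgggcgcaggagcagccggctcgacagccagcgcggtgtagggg
Top2a: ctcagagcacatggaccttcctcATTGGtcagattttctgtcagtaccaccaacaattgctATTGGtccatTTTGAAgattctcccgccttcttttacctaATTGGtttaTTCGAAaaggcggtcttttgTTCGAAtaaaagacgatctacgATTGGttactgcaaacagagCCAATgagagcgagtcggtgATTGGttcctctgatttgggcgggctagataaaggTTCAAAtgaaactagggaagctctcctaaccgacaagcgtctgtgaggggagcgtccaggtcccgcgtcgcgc
Cdc20: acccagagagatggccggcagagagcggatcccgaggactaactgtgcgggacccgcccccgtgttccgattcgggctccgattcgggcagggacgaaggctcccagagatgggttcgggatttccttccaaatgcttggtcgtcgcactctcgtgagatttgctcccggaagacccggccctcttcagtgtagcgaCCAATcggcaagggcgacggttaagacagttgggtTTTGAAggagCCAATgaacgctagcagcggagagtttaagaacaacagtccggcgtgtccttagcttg

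The motifs searched were TTTCCCGC, TTTCGCGC, TTTGCCGC and TTTGGCGC for E2F, TTTGAA and TTCGAA for the CHR element, and CCAAT. Mcm7 held 2 E2F sites, 1 CHR element and 3 CCAAT boxes, and its downstream E2F site shared 1 base with a CCAAT box. Top2a held 4 CHR elements and 6 CCAAT boxes, Cdc20 held 1 and 2, and the Ccne1 window held none of these letters. Of the 40 members, 34 had a promoter in the table. An E2F site stood in 8 of 19 replication promoters and in 1 of 15 mitosis promoters, against 2.32% of all 27025 promoters of the same length. CHR elements stood in 5 of 19 replication promoters and 11 of 15 mitosis promoters, against 19.4% of all, and CCAAT boxes in 12 of 19 and 13 of 15, against 37.9% of all. The letters are a description and do not show that a factor binds there.

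Before the members are described, several arrays need naming. Raw median intensity ran from 124.8 to 219.8 per array, and 15204 to 18471 of 45281 probes were detected. All 4 arrays at 72 h had a wider range, with a 95th percentile of 2162 to 2533 intensity units, against 908 to 1720 on the other arrays, so that stage and array set cannot be told apart at 72 h. The array of KD cells at 6 d, replicate 1, stood apart for the members. It was the lowest of all 12 arrays for 28 of the 34 members (17 of 20 replication and 11 of 14 mitosis genes), against 15.6% of all genes. It lay below replicate 2 of its own group for 18 of 20 replication genes (median difference -0.72 on the log2 scale) and for all 14 mitosis genes (median -0.66), against 53.6% of all genes (median -0.05). Replicate 1 of CTL cells at 6 d also lay below its replicate 2, for 17 of 20 and 13 of 14 members, with a median difference of -0.27 in each module. Another 3 arrays (replicate 2 of KD cells at 0 h and of KD and CTL cells at 6 d) resembled each other in 19450 probes detected on no array, with correlations of 0.136 to 0.170 against -0.321 to 0.040 for 57 other pairs, and the 6 pairs of 72 h arrays gave 0.149 to 0.237. With a term for those 3 arrays, 13 replication and 9 mitosis genes passed at 6 d against 0 h in KD cells and 11 and 6 in CTL cells, more than in the results below, which have no such term. The calls over all 11621 genes grew too. With the term 1710 fell in KD and 1598 in CTL cells, against 1188 and 1162 without it. Results that rest on replicate 1 of KD cells at 6 d are therefore given with and without it.

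**Figure D1:**
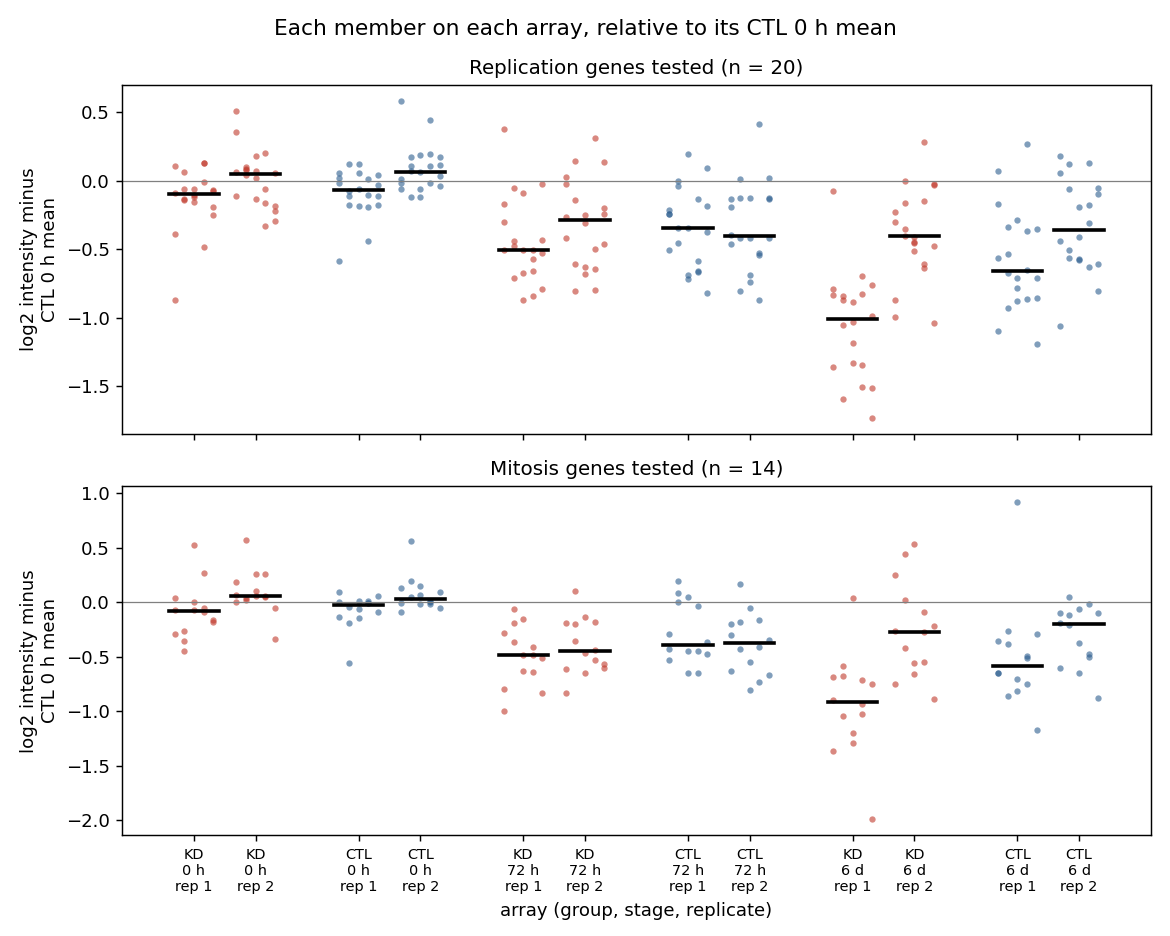
Each point is 1 tested member on 1 array, as log2 intensity minus that gene's mean in CTL cells at 0 h, in red for KD and blue for CTL arrays, and black bars are medians over the 20 replication (top) or 14 mitosis (bottom) genes. The medians on replicate 1 of KD cells at 6 d, -1.01 and -0.92, are the lowest of the 12 arrays in either panel.

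The knock-down was visible in the target gene itself. Kdm3a stood at log2 8.93 and 8.88 in KD and 9.97 and 9.98 in CTL cells at 0 h, 8.17 and 8.06 in KD and 9.78 and 9.90 in CTL cells at 72 h, and 7.76 and 7.53 in KD and 9.29 and 9.12 in CTL cells at 6 d. Both KD arrays lay below both CTL arrays at every stage. Averaged over the stages the difference was -1.45 (SE 0.11, adjusted p = 0.000578) in limma. At 0 h it was -1.07 and at 6 d -1.57 (adjusted p = 0.12 and 0.067 in limma), neither past the threshold. At 72 h it was -1.73 and passed (adjusted p = 0.026 in limma). The state of the cells followed the labels as well: all 12 endoderm markers rose at 6 d against 0 h in KD and in CTL cells (median 4.94 and 4.95), and all 8 stem cell markers were lower, 6 past the threshold in KD and 5 in CTL cells. At 0 h the endoderm marker Gata6 was already higher in KD than in CTL cells, by 1.80 (SE 0.24, adjusted p = 0.0434 in limma). The summed intensity of the stem cell markers was 5170 to 11900 in KD cells and 9080 to 11200 in CTL cells at 6 d, against 24600 to 26000 and 25400 to 26900 at 0 h, with the lowest sum on replicate 1 of KD cells. That of the endoderm markers was 77700 to 119000 in KD cells and 81800 to 119000 in CTL cells at 6 d, against 7110 to 9770 and 5270 to 6760 at 0 h. Of the fibroblast markers Col1a1, Lum and Postn, and of the blood cell markers Ptprc, Lyz2, Hba-a1 and Itgam, were detected on at most 1 array. Of 7 fibroblast markers 4 were tested, and their summed intensity was 149 to 269 in KD and 164 to 191 in CTL cells at 6 d, against 229 to 237 and 196 to 224 at 0 h. The sum hides moves in opposite directions at 6 d against 0 h: Dcn rose by 1.93 in KD and 1.68 in CTL cells, while Thy1 (-1.97 and -2.06) fell in both and Col1a2 (-1.33) in KD cells. Of 8 blood cell markers 2 were tested, with sums of 106 to 131 in KD and 93.8 to 106 in CTL cells at 6 d, against 92.7 to 154 and 86 to 101 at 0 h. The part of these shifts in the results below was not tested.

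At 6 d against 0 h, the end of differentiation against its start, some replication genes fell and none rose. In KD cells 6 of 20 tested replication genes fell (Mcm4, Mcm5, Mcm6, Mcm7, Lig1 and Ccne1) at an adjusted p under 0.05 in limma. In CTL cells 2 fell (Mcm7 and Ccne1). Of all genes tested, 10.2% fell and 12.1% rose in KD cells, and 10.0% fell and 12.2% rose in CTL cells, so the 2 of 20 in CTL cells are at the share of all genes. The median log2 difference over the 20 genes was -0.66 in KD cells, all 20 being lower, and -0.49 in CTL cells, with 17 of 20 lower, where the median of all genes was -0.03 in either. Without replicate 1 of KD cells at 6 d, only Mcm7 and Ccne1 passed the threshold in KD cells and the median was -0.39. These calls are near the share of all genes that fell in the same fit. Scaling the arrays by their medians in place of quantile normalization left 1 replication gene past the threshold in either kind of cell. It shifted the median of all genes by 0.15 in KD and 0.11 in CTL cells and gave medians of -0.42 and -0.29 for the replication genes.

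Mcm7, a subunit of the replicative helicase, had log2 intensities of 9.97 and 10.25 in KD and 10.42 and 10.30 in CTL cells at 0 h, 10.06 and 9.94 in KD and 9.85 and 9.96 in CTL cells at 72 h, and 9.00 and 9.36 in KD and 9.26 and 9.30 in CTL cells at 6 d. All 6 d values lay below all 0 h values, and the 6 d arrays of KD and CTL cells overlapped. The change at 6 d against 0 h was -0.93 (SE 0.21, adjusted p = 0.00896) in KD cells, and -1.08 (SE 0.21, adjusted p = 0.00388) in CTL cells (limma). In CTL cells the fall passed the threshold in each of the 12 fits that left out 1 array, and in KD cells in 11 of 12, with adjusted p at most 0.0756. Its other tested probe gave log2 differences of -0.71 in KD and -0.92 in CTL cells. At 72 h against 0 h in KD cells that probe, detected on all 12 arrays, gave -1.05, where the brightest gave -0.11. The course to 72 h given above is therefore that of the brightest probe. Mcm6, another helicase subunit, stayed near its 0 h level at 72 h and was lower on all 4 arrays at 6 d, with 11.17 and 11.30 in KD and 11.13 and 11.36 in CTL cells at 0 h, 11.22 and 11.38 in KD and 11.34 and 11.26 in CTL cells at 72 h, and 9.73 and 10.77 in KD and 10.05 and 10.64 in CTL cells at 6 d. Its fall in KD cells was -0.98 (SE 0.32, adjusted p = 0.0473) in limma. In CTL cells the difference was -0.90 (SE 0.32, adjusted p = 0.0678) in limma and did not pass. Of the 3 other Mcm6 probes, 1, detected on all 12 arrays, gave -0.39 at 72 h against 0 h in KD cells, so the level course to 72 h is that of the brightest probe. At 6 d against 0 h 2 of the 3 had the same sign in KD cells.

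Mcm5 and Mcm4 complete the called helicase subunits. Mcm5 was measured at 12.67 and 12.52 in KD and 12.69 and 12.67 in CTL cells at 0 h, 12.02 and 11.88 in KD and 12.02 and 11.81 in CTL cells at 72 h, and 11.17 and 12.04 in KD and 11.81 and 12.05 in CTL cells at 6 d. Every 6 d array was below every 0 h array. The difference was -0.99 (SE 0.27, adjusted p = 0.0234) in KD cells (limma), and -0.75, not past the threshold, in CTL cells. Mcm4 was measured at 12.41 and 12.74 in KD and 12.50 and 12.63 in CTL cells at 0 h, 12.06 and 12.25 in KD and 12.22 and 12.15 in CTL cells at 72 h, and 11.38 and 12.11 in KD and 11.78 and 12.15 in CTL cells at 6 d. Its difference was -0.83 (SE 0.27, adjusted p = 0.0464) in KD cells (limma) and -0.60 in CTL cells, where it did not pass. Leaving out replicate 1 of KD cells at 6 d moved the KD values to -0.56 for Mcm5, -0.46 for Mcm4 and -0.46 for Mcm6, with adjusted p of 0.126, 0.253 and 0.283 in limma, so these calls ended. Mcm2, a subunit often used as a proliferation marker, gave 10.71 and 10.87 in KD and 10.79 and 10.81 in CTL cells at 0 h, 10.64 and 10.54 in KD and 10.56 and 10.34 in CTL cells at 72 h, and 10.01 and 10.58 in KD and 10.23 and 10.36 in CTL cells at 6 d. Its differences at 6 d against 0 h, -0.50 in KD and -0.50 in CTL cells, did not pass, nor did those of Mcm3 at -0.65 and -0.75.

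Ccne1, the cyclin that starts S phase, showed the largest log2 difference of any replication member at 6 d against 0 h in KD cells. Its values were 9.68 and 9.46 in KD and 9.72 and 9.78 in CTL cells at 0 h, 9.32 and 9.28 in KD and 9.56 and 9.33 in CTL cells at 72 h, and 8.01 and 8.71 in KD and 9.04 and 8.94 in CTL cells at 6 d. At 6 d both KD arrays were below both CTL arrays, and all 4 were below the 0 h arrays. The change was -1.21 (SE 0.25, adjusted p = 0.00496) in KD cells, where it passed in all 12 fits that left out 1 array, and -0.76 (SE 0.25, adjusted p = 0.0466) in CTL cells, where it passed in 2 of 12 (limma). Lig1, the ligase that seals replicated strands, had 11.13 and 11.06 in KD and 11.25 and 11.13 in CTL cells at 0 h, 10.32 and 10.56 in KD and 10.47 and 10.50 in CTL cells at 72 h, and 9.86 and 10.68 in KD and 10.32 and 10.61 in CTL cells at 6 d. Its difference was -0.82 (SE 0.27, adjusted p = 0.0470) in KD cells (limma), and -0.41 without replicate 1 at 6 d, where the call ended. In CTL cells it was -0.73, which did not pass. Its 3 other probes gave -0.61, -0.89 and -0.01 in KD and -0.43, -0.86 and -1.19 in CTL cells, the last detected on 9 arrays.

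The origin factors Cdc45 and Cdc6 were not past the threshold at 6 d against 0 h. Cdc45, which completes the helicase, had 9.61 and 9.69 in KD and 9.29 and 9.68 in CTL cells at 0 h, 8.64 and 8.84 in KD and 8.90 and 8.96 in CTL cells at 72 h, and 8.66 and 9.34 in KD and 9.12 and 9.31 in CTL cells at 6 d. Its group means were lowest at 72 h in both kinds of cell, and the KD arrays at 6 d overlapped those at 72 h. Cdc6, the loader of the helicase, had 9.54 and 9.69 in KD and 9.53 and 9.67 in CTL cells at 0 h, 9.12 and 9.46 in KD and 9.56 and 9.61 in CTL cells at 72 h, and 8.01 and 9.44 in KD and 9.26 and 9.72 in CTL cells at 6 d. All arrays but 1 lay between 9.12 and 9.72, and the 8.01 on replicate 1 of KD cells at 6 d set its KD difference of -0.89 (not past the threshold), against -0.11 in CTL cells. Cdt1, its partner in loading, differed by -0.70 in KD and -0.64 in CTL cells without passing. Geminin, which keeps Cdt1 in check, was detected on 8 of 12 arrays and gave 5.69 and 5.23 in KD and 5.12 and 6.00 in CTL cells at 0 h, 5.05 and 5.87 in KD and 5.43 and 5.97 in CTL cells at 72 h, and 4.86 and 5.84 in KD and 5.82 and 5.69 in CTL cells at 6 d. Its groups overlapped at every stage, and its difference of 0.20 was the highest of the replication genes in CTL cells, against -0.11 in KD cells.

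Pcna, the sliding clamp, had a wide spread between replicate arrays from 72 h on, with 7.68 and 7.71 in KD and 7.97 and 7.89 in CTL cells at 0 h, 7.14 and 7.73 in KD and 7.11 and 7.80 in CTL cells at 72 h, and 6.94 and 7.91 in KD and 7.07 and 7.83 in CTL cells at 6 d. Each group at 72 h and 6 d held 1 array near the 0 h level and 1 well below it, and its differences at 6 d against 0 h of -0.27 in KD and -0.47 in CTL cells did not pass. The clamp loader subunit Rfc4 had 9.55 and 9.56 in KD and 9.60 and 9.36 in CTL cells at 0 h, 9.43 and 9.63 in KD and 9.48 and 9.35 in CTL cells at 72 h, and 8.64 and 9.48 in KD and 8.81 and 9.43 in CTL cells at 6 d. The smaller subunit gene Rfc3, a dim probe, had 6.46 and 6.71 in KD and 5.76 and 6.93 in CTL cells at 0 h, 6.73 and 6.33 in KD and 6.14 and 6.15 in CTL cells at 72 h, and 6.27 and 6.05 in KD and 6.42 and 6.41 in CTL cells at 6 d. Neither passed in any comparison, Rfc4 at -0.49 in KD and -0.37 in CTL cells and Rfc3 at -0.42 and 0.07. Primase Prim1 was detected on 9 arrays and on neither KD array at 6 d, with 5.13 and 6.51 in KD and 6.01 and 5.98 in CTL cells at 0 h, 5.49 and 6.03 in KD and 5.76 and 5.87 in CTL cells at 72 h, and 5.16 and 5.13 in KD and 5.83 and 6.18 in CTL cells at 6 d. Its KD value at 6 d is a bound, at least 1.23-fold below the mean of KD cells at 0 h. That mean rests on 1 detected array, and the undetected one lay below both KD arrays at 6 d, so the groups overlap. Rrm1 and Rrm2, the subunits of the enzyme that makes deoxyribonucleotides, differed by -0.63 and -0.71 in KD cells and by -0.24 and -0.48 in CTL cells. Fen1, the flap nuclease, differed by -0.62 in KD and -0.52 in CTL cells, and Tyms, the thymidylate synthase, by -0.21 and -0.20. None of these 4 passed the threshold. The values given are those of the brightest probes. The other tested probes of Tyms gave -0.44, -0.57, -0.89 and -1 in KD cells. In CTL cells they gave 0.31, -0.89, -0.72 and -0.25, in the same order. For Rrm1 the other tested probe, detected on all 12 arrays, gave -0.06 in KD and -0.37 in CTL cells. The size of both changes, and for Tyms in CTL cells the sign, therefore depends on the probe.

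Among mitosis genes some also fell at 6 d, and none rose. At 6 d against 0 h 5 of 14 tested mitosis genes fell in KD cells (Cdc20, Bub1b, Aurka, Top2a and Cenpa) and 3 fell in CTL cells (Cdc20, Bub1b and Top2a), where 10.2% and 10.0% of all genes fell. The median log2 difference was -0.66 in KD cells, with all 14 lower, and -0.47 in CTL cells, with 13 of 14 lower. When replicate 1 of KD cells at 6 d was left out, Top2a alone passed in KD cells and the median was -0.27, with 10 of 14 lower. A lone call is no more than the share of all genes that fell in the same fit. Under median scaling no mitosis gene passed in either kind of cell, with medians of -0.37 and -0.24. Fitted on the 4 arrays of the comparison alone, no member passed in KD cells, and 1 replication and 1 mitosis gene passed in CTL cells. Taking both modules, both 6 d arrays lay below both 0 h arrays for 25 of 34 members in KD cells, against 27.7% of all genes, and for 24 of 34 in CTL cells, against 31.0% of all genes.

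**Figure D2:**
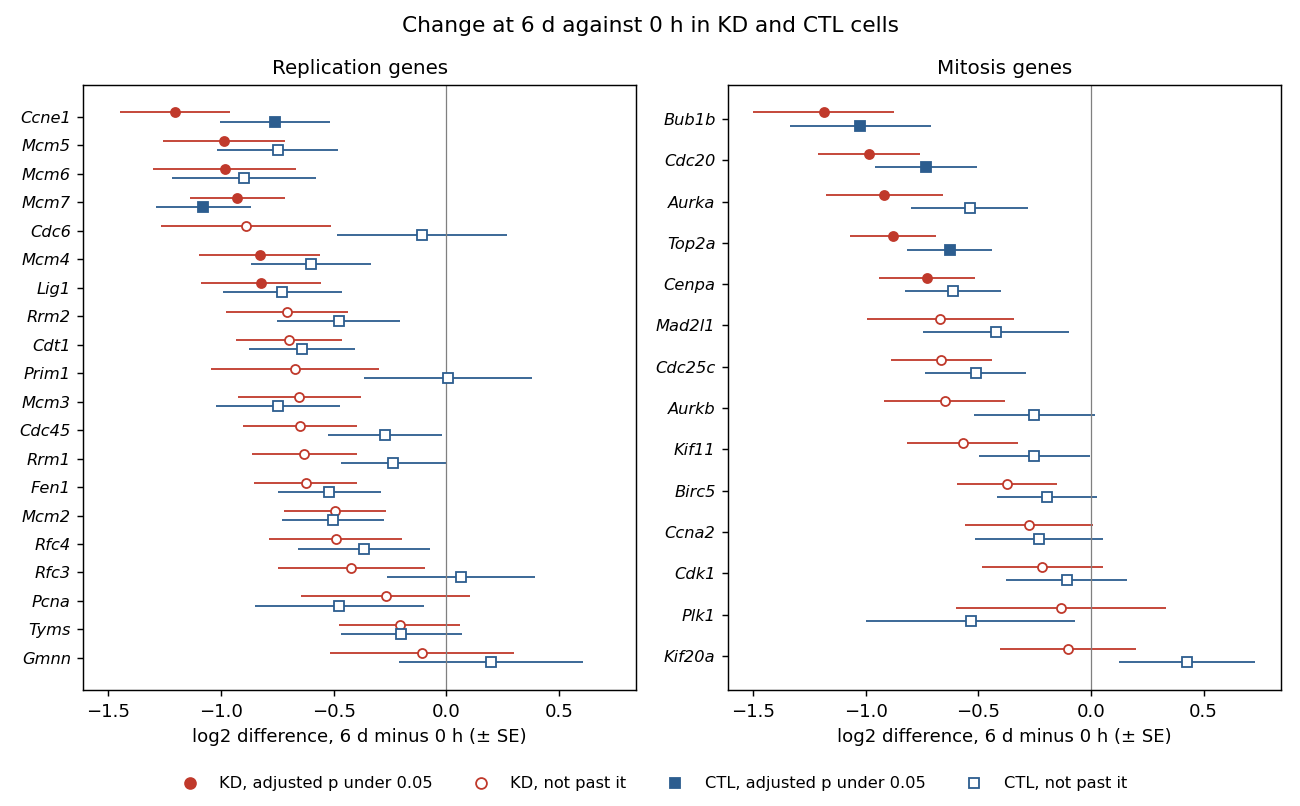
Log2 difference at 6 d minus 0 h with its standard error for each tested replication gene (left) and mitosis gene (right), in KD cells (red circles) and CTL cells (blue squares), filled where the adjusted p was under 0.05. All 34 KD values lie below 0, and 11 of them and 5 CTL values are filled.

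Top2a, the topoisomerase that untangles sister chromatids, had 11.17 and 11.20 in KD and 11.22 and 11.04 in CTL cells at 0 h, 10.85 and 10.94 in KD and 10.84 and 10.93 in CTL cells at 72 h, and 10.23 and 10.38 in KD and 10.48 and 10.53 in CTL cells at 6 d. The 6 d arrays lay below all 0 h and 72 h arrays of their own kind of cell, and at 6 d both KD arrays were below both CTL arrays. The change was -0.88 (SE 0.19, adjusted p = 0.00696) in KD cells, past the threshold in all 12 fits that left out 1 array, and -0.63 (SE 0.19, adjusted p = 0.0356) in CTL cells, past it in 2 of 12 (limma). Both other Top2a probes were lower as well, with differences of -0.97 and -1.96 in KD cells and of -1.10 and -1.92 in CTL cells.

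Cdc20, the activator of the anaphase-promoting complex, had 12.60 and 12.70 in KD and 12.53 and 12.66 in CTL cells at 0 h, 12.10 and 11.94 in KD and 11.94 and 11.78 in CTL cells at 72 h, and 11.39 and 11.93 in KD and 11.77 and 11.94 in CTL cells at 6 d. All 72 h and 6 d arrays lay below all 0 h arrays. Its 6 d against 0 h change was -0.99 (SE 0.23, adjusted p = 0.00967) in KD cells, and -0.73 (SE 0.23, adjusted p = 0.0386) in CTL cells (limma). Its 3 other probes had the same sign. The CTL call passed in 2 of the 12 fits that left out 1 array, as did that of Bub1b. Bub1b, the checkpoint kinase-like protein BubR1, had 10.86 and 10.70 in KD and 11.09 and 10.98 in CTL cells at 0 h, 10.21 and 10.47 in KD and 10.57 and 10.37 in CTL cells at 72 h, and 9.04 and 10.15 in KD and 9.87 and 10.16 in CTL cells at 6 d. Its KD arrays at 6 d lay far apart, and its change was -1.19 (SE 0.31, adjusted p = 0.0201) in KD cells, and -1.03 (SE 0.31, adjusted p = 0.0376) in CTL cells (limma). Without replicate 1 of KD cells at 6 d the adjusted p in KD cells was 0.0520 for Cdc20 and 0.103 for Bub1b in limma, with differences of -0.71 and -0.63.

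Aurka, the kinase that matures spindle poles, had 10.79 and 10.93 in KD and 10.72 and 11.01 in CTL cells at 0 h, 10.24 and 10.40 in KD and 10.42 and 10.32 in CTL cells at 72 h, and 9.58 and 10.30 in KD and 10.16 and 10.49 in CTL cells at 6 d. Cenpa, the histone of centromeres, had 13.03 and 13.17 in KD and 13.11 and 13.12 in CTL cells at 0 h, 12.48 and 12.68 in KD and 12.47 and 12.39 in CTL cells at 72 h, and 12.18 and 12.57 in KD and 12.37 and 12.64 in CTL cells at 6 d. For both genes every 6 d array was below every 0 h array. The differences were -0.92 (SE 0.26, adjusted p = 0.0275) for Aurka in KD cells, and -0.73 (SE 0.21, adjusted p = 0.0317) for Cenpa (limma), against -0.54 and -0.61 in CTL cells, which did not pass. The other Cenpa probe, detected on 11 arrays, gave -1.14 in KD and -0.18 in CTL cells. Aurka and Cenpa both missed the threshold without replicate 1 of KD cells at 6 d, at -0.55 and -0.54. Aurkb, the kinase of the chromosomal passenger complex, and Birc5, its partner survivin, differed by -0.65 and -0.37 in KD cells and by -0.25 and -0.20 in CTL cells without passing, as did the spindle motor Kif11 at -0.57 and -0.25.

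The kinase at the centre of mitotic entry differed little between stages. Cdk1 had 10.91 and 11.21 in KD and 10.98 and 11.37 in CTL cells at 0 h, 11.12 and 11.28 in KD and 11.37 and 11.34 in CTL cells at 72 h, and 10.50 and 11.20 in KD and 10.91 and 11.22 in CTL cells at 6 d. Its KD and CTL arrays overlapped at 0 h and 6 d, both KD arrays were lower at 72 h, and its differences at 6 d against 0 h were -0.22 in KD and -0.11 in CTL cells. Cdc25c, which activates it, had 8.71 and 8.69 in KD and 8.43 and 8.45 in CTL cells at 0 h, 7.96 and 7.91 in KD and 7.99 and 8.03 in CTL cells at 72 h, and 7.73 and 8.35 in KD and 7.92 and 7.93 in CTL cells at 6 d. The KD arrays at 0 h were above all others. Mad2l1, a checkpoint protein, had 9.70 and 9.99 in KD and 9.86 and 10.12 in CTL cells at 0 h, 8.99 and 9.15 in KD and 9.45 and 9.36 in CTL cells at 72 h, and 8.62 and 9.72 in KD and 9.34 and 9.80 in CTL cells at 6 d. It was lower on all 72 h arrays than on all 0 h arrays, and its differences at 6 d against 0 h were -0.67 in KD and -0.42 in CTL cells.

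The remaining mitosis members were dim. Plk1, the Polo kinase, was detected on 7 of 12 arrays with 5.39 and 6.41 in KD and 5.28 and 6.40 in CTL cells at 0 h, 5.48 and 5.48 in KD and 5.92 and 5.41 in CTL cells at 72 h, and 5.26 and 6.29 in KD and 4.98 and 5.63 in CTL cells at 6 d. Kif20a, a motor of cytokinesis, was detected on 2 arrays with 5.57 and 5.30 in KD and 5.06 and 5.03 in CTL cells at 0 h, 4.89 and 4.91 in KD and 5.10 and 4.99 in CTL cells at 72 h, and 5.08 and 5.58 in KD and 5.97 and 4.98 in CTL cells at 6 d. Ccna2, cyclin A, was detected on 5 arrays and on none at 72 h, where its level was at least 1.25-fold below 0 h in KD cells and at least 1.22-fold below it in CTL cells, which had 1 detected array at 0 h. Plk1 differed by -0.13 in KD and -0.53 in CTL cells at 6 d against 0 h, with overlapping groups, and Kif20a was undetected at 0 h and detected on 1 array of each group at 6 d, so no order can be read for either.

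**Figure D3:**
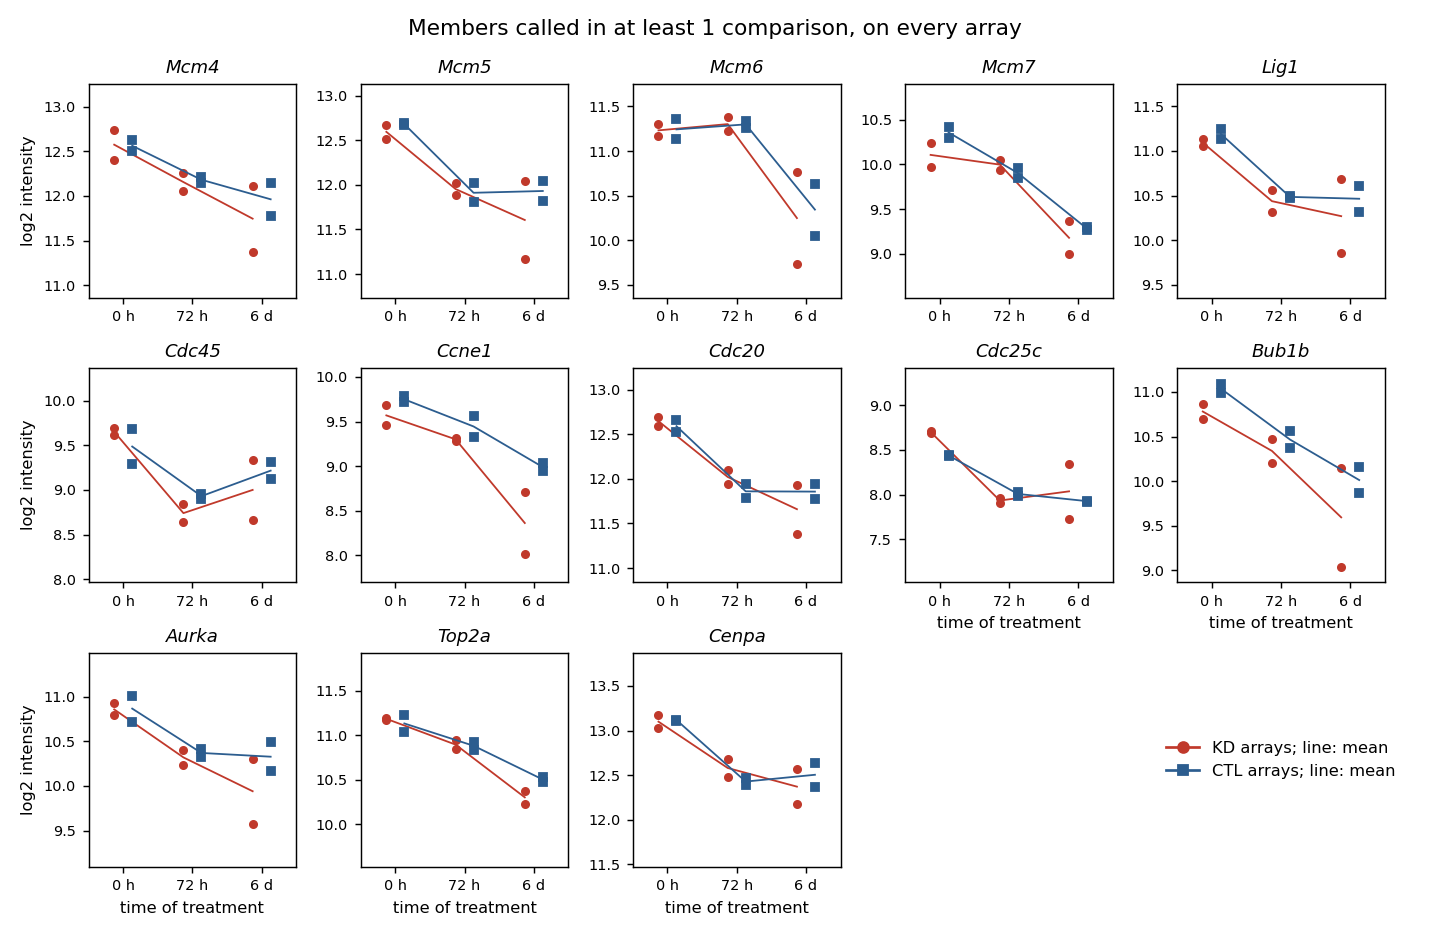
Log2 intensity of the 13 members past the threshold in at least 1 comparison, at 0 h, 72 h and 6 d, on each KD array (red circles) and CTL array (blue squares), with lines through the means and every panel spanning the same log2 range. The brightest Mcm6 probe is level until 72 h, Cdc45 is lowest at 72 h in both kinds of cell, and KD values at 6 d are widely spread for Bub1b, Mcm5 and Mcm6.

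At 72 h against 0 h few members passed the threshold, no more than the share of all genes. In KD cells Cdc45 fell (-0.91 (SE 0.25, adjusted p = 0.0323), limma) and Cdc25c fell (-0.77 (SE 0.22, adjusted p = 0.0396), limma). These are 1 replication and 1 mitosis gene, against 7.61% of all genes that fell and 8.79% that rose. In CTL cells none of the 34 passed, against 6.69% of all genes that fell and 8.11% that rose. There 4 replication and 2 mitosis genes had an unadjusted p under 0.05. The share of all genes under it was not counted, so no result about the members is read from this. Cdc20 and Cenpa came closest in CTL cells, with differences of -0.73 and -0.69 (adjusted p = 0.0520 and 0.0529 in limma). The module medians were -0.26 for replication and -0.49 for mitosis genes in KD cells, and -0.37 and -0.36 in CTL cells. Under median scaling these medians turned to 0.49 and 0.14 in KD cells and to 0.36 and 0.23 in CTL cells, while the median of all genes moved by 0.61 and 0.58. Mcm6 and Cdk1 were higher at 72 h in both kinds of cell, by 0.07 and 0.14 in KD and 0.06 and 0.18 in CTL cells, and did not pass. On either scale the module medians lay below the median of all genes. In fits that left out 1 array, Cdc45 passed in 6 of 12 and Cdc25c in 4 of 12, and 1 other Cdc25c probe gave -0.34 and another -0.03.

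At 6 d against 72 h no member passed the threshold. In KD cells 1.53% of all genes fell and 2.30% rose, and in CTL cells 0.990% fell and 1.54% rose. Mcm7, Ccne1 and Mcm6 were the nearest to passing in KD cells, at -0.82, -0.94 and -1.05 (adjusted p = 0.0565, 0.0609 and 0.0942 in limma). These are values of the brightest probes, and the probes of Mcm7 and of Mcm6 differ in their course to 72 h. Mcm6 and Mcm7 were the nearest in CTL cells, at -0.96 and -0.62 (adjusted p = 0.142 and 0.144 in limma). An unadjusted p under 0.05 was found for 3 replication and 2 mitosis genes in KD cells and for 2 and 0 in CTL cells. The share of all genes under it was not counted here either, so these counts are not read as a result. The module medians were -0.36 and -0.28 in KD cells, which became 0.04 and 0.01 without replicate 1 at 6 d, and -0.05 and -0.06 in CTL cells.

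In the fit on all 12 arrays no change of these genes with the Kdm3a knock-down was detected at any stage. Kdm3a itself, lower on both KD arrays at every stage, did not pass at 0 h or 6 d. Changes of that size in the members could therefore be missed there. None of the 34 members passed the threshold in KD against CTL cells at 0 h, 72 h, 6 d or averaged over the stages, in limma, where 0.0516%, 0.00861%, 0% and 0.413% of all genes did. An unadjusted p under 0.05 was found for 2 replication genes at 6 d and 1 in the average, and otherwise for none. The share of all genes under it was not counted, so these counts are not read as a result. The replication genes had median log2 differences of -0.05, -0.04 and -0.21 at 0 h, 72 h and 6 d and the mitosis genes 0.00, -0.13 and -0.21. At 6 d 19 of 20 replication and 11 of 14 mitosis genes were lower in KD cells, against 50.9% of all genes. Without replicate 1 of KD cells the medians were 0.12 and 0.09, and 6 of 20 and 5 of 14 were lower. Replicate 2 of KD cells alone was lower than replicate 1 of CTL cells for 4 of 20 replication and 3 of 14 mitosis genes, and lower than replicate 2 of CTL cells for 8 of 20 and 10 of 14 (medians 0.04 and -0.05). Against each CTL array taken alone, replicate 1 of KD cells was lower for all 20 replication and 13 of 14 mitosis genes. The exception was Plk1 against replicate 1 of CTL cells and Kif20a against replicate 2. Both KD arrays lay below both CTL arrays at 6 d for 6 of 34 members (Rfc3, Rrm1, Prim1, Ccne1, Top2a and Kif11), against 13.1% of all genes. Ccne1 had the smallest adjusted p of any member, with -0.32 (SE 0.14, adjusted p = 0.406) averaged over the stages and -0.63 (SE 0.25, adjusted p = 0.556) at 6 d in limma. Prim1 at 6 d was undetected in KD cells and so at least 1.41-fold lower than in CTL cells (limma adjusted p = 0.604), and Cdc6 differed by -0.77 (SE 0.38, adjusted p = 0.691 in limma). Averaged over the stages the lowest replication values were -0.36 for Prim1 and -0.35 for Cdc6 and the highest 0.12 for Rfc3 and 0.04 for Rfc4. Among mitosis genes the lowest were -0.29 for Mad2l1 and -0.27 for Bub1b and the highest 0.11 for Plk1 and 0.10 for Cdc25c. The standard errors of these averages were 0.11 to 0.27. Without replicate 2 of KD cells at 6 d, Cdc6 passed at 6 d (-1.48) and averaged over the stages (-0.59), as did more of all genes than in the fit on 12 arrays. Replicate 1 was then the lone KD array at 6 d, taken to vary like the other groups.

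**Figure D4:**
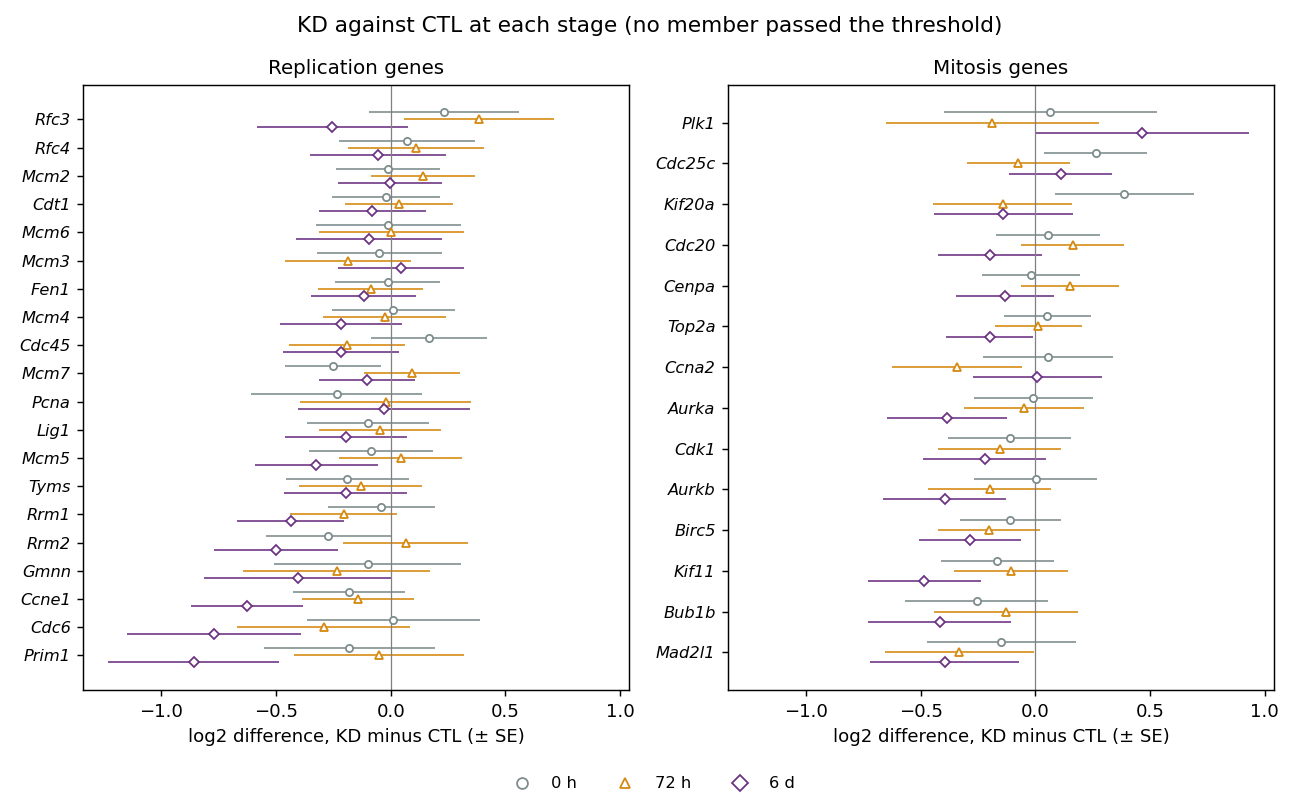
Log2 difference KD minus CTL with its standard error for each tested replication gene (left) and mitosis gene (right), at 0 h (grey circles), 72 h (orange triangles) and 6 d (purple diamonds). Most 6 d values lie left of 0, and none of the 34 genes passed the threshold at any stage.

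The more numerous calls in KD cells do not show a stronger fall there. When the 6 d against 0 h change of KD cells was compared with that of CTL cells, no member passed, and 0% of all genes did. The median of that difference was -0.18 for replication and -0.21 for mitosis genes, and 0.19 and 0.08 without replicate 1 of KD cells at 6 d. All 5 members called in CTL cells were also called in KD cells. For 72 h against 0 h and for 6 d against 72 h the share of all genes whose change differed between KD and CTL cells was also 0%. No member had an unadjusted p under 0.05 in any of the 3 tests. The smallest adjusted p over the members was 0.999 in limma.

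Other genes of the same processes, from lists of further replication and mitosis genes, moved in the same direction at 6 d. Of 39 further replication genes tested, 15 fell in KD and 13 in CTL cells and none rose, with medians of -0.67 and -0.62. Of all genes 10.2% and 10.0% fell. The largest falls were those of E2f2, Mcm10, Dbf4 and Rfc5. E2f2, a transcription factor of the S phase programme, had log2 differences of -1.70 in KD and -1.46 in CTL cells. Mcm10, a helicase cofactor, had -1.35 and -1.13. The Cdc7 kinase activator Dbf4 had -1.14 and -1.15, and the clamp loader subunit Rfc5 had -1.13 and -1.08. In the fit without replicate 1 of KD cells at 6 d, fewer of the 39 fell in KD cells, as did fewer of all genes. E2f2, Mcm10, Dbf4 and Rfc5 were among those that still fell. E2f2, Mcm10 and Rfc5 had also fallen at 72 h against 0 h in KD and in CTL cells. There 6 and 7 of the 39 genes fell, against 7.61% and 6.69% of all genes. Chaf1b, a chromatin assembly factor, was among the falls in both kinds of cell, and Gins1, a helicase subunit, among those in CTL cells.

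Of 40 further mitosis genes tested, 14 fell and 1 rose in KD cells, and 6 fell and 1 rose in CTL cells, where 10.2% and 10.0% of all genes fell. The medians were -0.69 in KD and -0.49 in CTL cells. With replicate 1 of KD cells at 6 d left out, fewer fell in KD cells, near the share of all genes that fell in that fit. Aspm, a spindle pole protein, fell, with log2 differences of -1.54 in KD and -1.20 in CTL cells. Cep55, which acts in the last step of cell separation, fell too, with -1.22 and -1.12. Kif18a, a kinesin that limits chromosome movements, fell in KD cells, with -1.43, which became -1.01 (adjusted p = 0.162 in limma) without replicate 1 at 6 d. Anln, an actin-binding protein of the cleavage furrow, fell, with -1.06 in KD and -1.02 in CTL cells. Pttg1, securin, fell by 1.55 in CTL cells, where 1 array at 6 d detected it, and was at least 2.38-fold lower at 6 d than at 0 h in KD cells, where neither did. The gene that rose was Kif23, a motor of the central spindle, by 2.07 in KD and 2.64 in CTL cells. Only its brightest probe did so, since the other 3 gave -0.55, -0.53 and -0.69 in KD and -0.32, -0.49 and -0.52 in CTL cells. At 72 h against 0 h 3 of the 40 fell and 1 rose in either kind of cell. The 3 falls are near the share of all genes that fell, 7.61% in KD and 6.69% in CTL cells. Gtse1 and Ccnf fell in both, Wee1 in KD cells (undetected at 72 h and at least 1.56-fold lower there) and Cdca8 in CTL cells. Spc25, a kinetochore protein, rose. At 6 d against 72 h Aspm fell and Kif23 rose in both. The genes Plk4, Incenp, Ube2c (undetected at 6 d and at least 2.01-fold lower there) and, among replication genes, Dbf4 fell in KD cells. Without replicate 1 at 6 d Plk4 passed (-1.07), and Incenp (-0.77), Ube2c (-1.07) and Dbf4 (-0.77) did not, with adjusted p of 0.0688, 0.0779 and 0.0641 in limma.

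The inhibitors of cyclin-dependent kinases ran the other way. All 7 were tested, and at 6 d against 0 h 5 rose and 1 fell in KD cells and 5 rose in CTL cells. Of all genes 12.1% rose in KD and 12.2% in CTL cells. Cdkn1a, the p21 inhibitor, rose by 2.45 in KD and 2.75 in CTL cells, and most of that came after 72 h, with rises of 1.59 and 2.01 at 6 d against 72 h. Cdkn2a, the locus of the Ink4a and Arf inhibitors, rose by 1.99 in KD and 1.86 in CTL cells. Cdkn2c, another Ink4 inhibitor, was undetected in KD cells at 0 h and was at least 2.03-fold higher at 6 d, and rose by 1.20 in CTL cells. Cdkn2b, its relative, rose by 1.04 in KD cells and was at least 2.29-fold higher in CTL cells, where it was undetected at 0 h. Cdkn2d rose by 0.80 and 0.90. When replicate 1 of KD cells at 6 d was left out, fewer inhibitors rose in KD cells, as did fewer of all genes. Cdkn2a (1.27), Cdkn2b (1.08) and Cdkn1c (-1.02) then missed the threshold. Cdkn1c, the p57 inhibitor, fell by 0.93 in KD cells and differed by -0.89, not past the threshold, in CTL cells. It was also the sole gene of the replication, mitosis and inhibitor lists past the threshold in KD against CTL cells, with a log2 difference of 1.02 (SE 0.17, adjusted p = 0.0384 in limma) averaged over the stages. That call was kept in 2 of the 12 fits that left out 1 array, with adjusted p of up to 0.155.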

How the data were processed

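Total RNA of 12 F9 cell samples was hybridised to Illumina bead arrays, from 200 ng of RNA each, per the labels' protocols. For each of 45281 probes the authors deposited a non-normalized intensity and a detection p-value on every array. They also deposited a processed table of intensities (medians of 184.1 to 184.4 per array), which its values show to be quantile normalized without background correction. It was used only as an alternative. The sources used here do not name the software that summarised the beads.

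The intensities were background corrected with nec of limma 3.58.1 in R 4.3.3 (offset 16, background inferred from the detection p-values), taken to log2 and quantile normalized. The offset shrinks changes of dim genes. A probe was kept if 2 or more arrays detected it (p under 0.05), and the brightest probe stood for a gene, which gave 11621 genes. Probes with 1 symbol numbered 34885, with several 18 and with none 10378. The fit over all 12 arrays had a mean per group (limma's lmFit and eBayes, with 5.01 prior and 6 residual degrees of freedom). Within each of 13 comparisons p-values were adjusted by Benjamini-Hochberg, and genes under 0.05 were taken as changed. The number of arrays limits the precision. A group with no array that detects a gene gives only a bound, taken against the lowest detected value of each array or the gene's own value if higher.

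Values on all arrays are printed for 9 preset members where measured, for members past the threshold in any comparison, and for the 2 highest and 2 lowest of each module in KD against CTL averaged and in 6 d against 0 h in CTL. Further genes named are up to 4 per list, direction and comparison. Members and lists were chosen with earlier results of these data known. Promoters are from RefSeq, 1 window a gene. The fit was tested on simulated data with known changes. Alternatives tried were the offset, the background correction, the authors' table, the scaling, the filter, the probe summary, blocks, the arrays fitted and each array left out.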

Additional observations from a re-analysis of the deposited data

How the results depend on the processing

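With 2 arrays a group, 1 array can decide a count, and dim members (Gmnn, Prim1, Ccna2, Plk1 and Kif20a) have little signal over background. Of 286 counts of called members under other settings, 224 moved by no more than 1.5 times and 62 moved further. The 224 include all counts for KD against CTL cells and for the difference between KD and CTL changes, which stayed at 0. All 62 that moved further were counts of changes between stages within KD or CTL cells. In KD against CTL cells at 0 h and 72 h and in the 3 tests of the difference between KD and CTL changes, every setting and every fit that left out 1 array gave 0 called members. Counts below are of replication and then mitosis genes. Median scaling changed the counts over all 11621 genes too. At 6 d against 72 h 1996 of all genes fell in KD and 2029 in CTL cells, against 178 and 115 in the main fit. At 6 d against 0 h 503 and 572 fell, against 1188 and 1162. Other settings changed them as well. At 6 d against 72 h 262 of all genes fell in KD cells without background correction and from the authors' table. An offset of 50 gave 249 there and the stricter filter 209 of 8924. The term for the 3 arrays that resemble each other gave 331 in KD and 203 in CTL cells. The calls over all genes also varied between the fits that left out 1 array. The cause of each move was not tested.

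For 6 d against 0 h, where 6 and 5 passed in KD and 2 and 3 in CTL cells, the replication counts were 10 in KD and 7 in CTL cells without background correction and from the authors' table, and 7 in CTL cells with an offset of 50. Of all genes 1349 fell in KD and 1307 in CTL cells without background correction, and 1355 and 1303 from the authors' table. An offset of 50 gave 1338 and 1287, and the main fit 1188 and 1162. Median scaling gave 1 and 0 in KD and 1 and 0 in CTL cells. No filter on dim probes gave 3 replication genes in KD and 1 in CTL cells, where 1166 and 1125 of 19057 genes fell. Fitting only the groups compared gave 0 and 0 in KD and 1 and 1 in CTL cells, where 380 and 728 of all genes fell. A term for the 3 arrays that resemble each other, an alternative chosen after seeing the data, gave 13 and 9 in KD and 11 and 6 in CTL cells, and leaving them out gave 11 and 8 in KD cells and 8 replication genes in CTL cells. Leaving out 1 array gave 1 to 15 and 1 to 10 in KD and 1 to 7 and 0 to 5 in CTL cells, with 2 and 1 in KD cells without replicate 1 at 6 d and 15 and 10 without replicate 2.

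For 72 h against 0 h, where 1 and 1 passed in KD and 0 and 0 in CTL cells, no background correction and the authors' table gave 2 and 3 in KD and 3 and 2 in CTL cells. Of all genes 971 and 948 fell without background correction and 963 and 942 from the authors' table, against 884 and 777 in the main fit. An offset of 50 gave 2 mitosis genes in KD and 1 and 2 in CTL cells, the stricter filter 1 and 2, the mean of probes 1 and 1, only the groups compared 4 and 2, the term for the 3 arrays 4 and 2 and leaving them out 4 and 3 in CTL cells. In KD cells median scaling gave 0 replication genes and the term for the 3 arrays 0 mitosis genes. Of all genes 288 and 1043 fell in those 2 fits. In CTL cells 889 of all genes fell with an offset of 50 and 712 with the mean of probes. With only the groups compared 1423 fell there, and with the term for the 3 arrays 1204. The stricter filter gave 816 of 8924. Leaving out 1 array gave 0 to 5 and 0 to 4 in KD and 0 to 3 and 0 to 2 in CTL cells.

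For 6 d against 72 h, where none passed, no background correction and the authors' table gave 2 and 1 in KD cells, an offset of 50 and the stricter filter 2 replication genes, median scaling 6 and 3 in KD and 3 replication genes in CTL cells, the term for the 3 arrays 3 and 1 in KD and 1 replication gene in CTL cells, and leaving those arrays out 5 and 2 in KD and 1 replication gene in CTL cells. Leaving out 1 array gave 0 to 4 and 0 to 1 in KD and 0 to 1 replication genes in CTL cells. In KD against CTL cells at 6 d and averaged, leaving out 1 array gave 0 to 1 replication genes and 0 mitosis genes. The 1 gene was Cdc6, without replicate 2 of KD cells at 6 d, a fit in which more of all genes passed as well.

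Under median scaling the 72 h against 0 h differences of Cdc25c (0.098) and Kdm3a (0.065) in KD and of Pola2 (0.002) and Ccnf (0.072) in CTL cells turned positive, and the mean of its probes turned Kif23 to -0.038 at 6 d against 72 h in KD cells.

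The replicate numbers were not taken as pairs, since no label links them and same-numbered arrays correlated, in their deviations from group means, at -0.10 to 0.56 over 15 pairs of groups, above 0.1 in 8. KD and CTL cells correlated at 0.13 at 0 h, 0.04 at 72 h and 0.56 at 6 d, where replicate 1 was low in both. With the replicate number as a block, 2 replication genes passed at 6 d against 72 h in KD cells and 2 mitosis genes at 72 h against 0 h in CTL cells, and no other count of called members moved by over 1.5 times. Of all genes 264 and 944 fell in these 2 comparisons with the block, against 178 and 777 in the main fit. A slide block was not run because the deposited tables name no slides.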
